A study of Mus musculus with 12 samples.

Results

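*Kcnh2* and the Kcne accessory subunit genes were followed in the left atrium (LA) after activation of Notch signaling in cardiomyocytes. The genes are the 6 of the 54658 names in the deposited count table that are called *Kcnh2*, *Kcne1*, *Kcne2*, *Kcne3*, *Kcne4* or *Kcne1l* (also known as *Kcne5*), and they were chosen by name, not by their values. *Kcnh2* and *Kcne4* passed the expression filter, at least 6 libraries with over 1 CPM (a count scaled to the library's depth), and both exceeded 1 CPM in all 12. The other 4 did not pass it, *Kcne1l* exceeding 1 CPM in 3 libraries and *Kcne1*, *Kcne2* and *Kcne3* in 0.

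*Kcnh2* encodes the pore-forming subunit of the channel that carries IKr, the rapid component of the delayed rectifier potassium current, which repolarizes the human heart late in the action potential and is the target of many drugs that prolong the QT interval. The Kcne genes encode small proteins with a single membrane span that form no pore of their own and change the gating, conductance or surface level of the pore subunits they bind. The slow component, IKs, is carried by *Kcnq1* channels. The mouse heart, with its short action potential, relies on other potassium currents more than on these.

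Total RNA of 12 LA was sequenced, 1 library for each mouse. The 6 iNICD mice carried *αMHC-rtTA*, a tetracycline-controlled transactivator driven in cardiomyocytes by the promoter of the alpha myosin heavy chain gene, together with *tetO-NICD*, from which the transactivator and doxycycline switch on the Notch1 intracellular domain. The 6 littermate controls carried *αMHC-rtTA* without *tetO-NICD*. All 12 mice, 2 to 3 months old and of mixed genetic background, ate doxycycline chow for 3 weeks and were sampled without washout, so the control group shares both the transactivator and the drug. Replicates 1 to 4 of the controls and 1 to 3 of the iNICD group were female and the others male. The transgene acts in cardiomyocytes, whereas the RNA came from whole atrial tissue, in which a lower share of a cell type and less RNA per cell cannot be told apart.

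The libraries held 21432632 to 27182038 counts on genes. One read was worth 0.0365 to 0.0468 normalized CPM, that is CPM of the library total after adjustment by the TMM method. *Notch1*, whose reads include those of the transgene, had 2335 to 3311 counts in control and 71187 to 107667 in iNICD libraries. Control replicate 5, a male, stood apart on the first principal component (32.6% of the variance), at -77.4 against -20.2 to 22.7 for the other 11 libraries, and had the lowest TMM factor, 0.863 against 0.974 to 1.06. Results on the 6 genes are therefore given with and without it where it moved them. The 4 atrial cardiomyocyte genes checked (*Nppa*, *Myl4*, *Myl7* and *Sln*) were abundant in every library. All 4 were lower in iNICD, against 1.34% of all tested genes (*Myl7* in only 4 of 12 fits without 1 library, the other 3 in all 12). The ventricular genes *Irx4* and *Hand1* had 0 counts in all 12 libraries and *Myl2* had 5 to 73. *Myh7*, a myosin heavy chain gene listed here with the ventricular genes, ranged from 297 to 58886 counts, and the right atrial gene *Bmp10* from 2 to 856.

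*Kcnh2* lies on the minus strand of chromosome 5 from 24319589 to 24351604 (GRCm38, GENCODE M21). Its 2 coding transcripts differ at their 5′ ends. The long transcript has 15 exons and 4221 exonic bases, and the short transcript starts further inside the gene, at position 24329591, with 11 exons and 3193 exonic bases. They share 2766 exonic bases, so a count per gene cannot assign reads to either. RefSeq places its listed *Kcnh2* promoter (GRCm38.p6) at the start of the short transcript. The stretch from 100 bases before to 30 bases after that start, chr5:24329562-24329691, is printed in the direction of transcription because it is the only start of the gene in the promoter table and holds the core letters read by RBPJ, the DNA-binding partner of the Notch intracellular domain, on both strands. Capitals mark TGGGAA and its reverse complement TTCCCA, counted from the first transcribed base as 1.

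*Kcnh2* start site: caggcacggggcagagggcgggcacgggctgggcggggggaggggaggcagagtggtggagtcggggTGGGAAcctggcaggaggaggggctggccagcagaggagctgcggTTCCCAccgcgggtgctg

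The matches begin 33 bases before the start on the strand shown and at base 13 after it on the other strand, and do not overlap each other. In windows of 250 bases before to 50 after each start, TGGGAA on either strand occurred at least once in 25.6% of 32841 RefSeq windows and 2 or more times in 3.78%. The whole *Kcnh2* window had 74.3% G and C, against a median of 52.7% over all windows. Windows were found for 5 of the 6 genes and not for *Kcne1*. Among the 6 windows of the 4 Kcne genes, TGGGAA occurred once, in 1 of the 2 *Kcne3* windows, and the E-box CACGTG once, in that of *Kcne4*; 7.15% of all windows hold CACGTG. The letters were chosen with these sequences in view, and a match does not show that a factor binds there.

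*Kcnh2* was the most abundant of the 6 genes, in counts and per kb of exon, and its mean was 1.44 times as high in iNICD as in control libraries, a difference that did not pass the test across all genes. In control libraries 1 to 6 it had 206.8, 205.6, 227.1, 269.6, 122.9 and 254.2 normalized CPM. In iNICD libraries 1 to 6 it had 286.7, 278.3, 267.8, 387.3, 299.9 and 337.5. Of the 6 iNICD libraries, 5 lay above all 6 controls, and iNICD replicate 3 lay just under control replicate 4. Control replicate 5 was well below every other library. The means were 214.4 ± 51.6 in control and 309.6 ± 45.1 in iNICD (SD, n = 6 each), a 1.44-fold difference. On the log2 scale the fold change was 0.53 ± 0.16 (SE), with a 95% interval of 0.18 to 0.88.

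*Kcnh2* did not pass the threshold of 0.05 in the quasi-likelihood test of edgeR after Benjamini-Hochberg adjustment across 13541 genes (adjusted p = 0.0951, unadjusted p = 0.00613). A two-sided exact permutation test of its level alone, over the 924 ways to divide the 12 libraries, gave p = 0.00433. Across all tested genes 4.12% passed in either direction, 2.78% being higher and 1.34% lower in iNICD, and 3.83% had groups that did not overlap. Of the 6 genes, 0 passed and 0 had groups without overlap among the 2 tested; in the same test 1, *Kcnh2*, was higher at an unadjusted p under 0.05, a level that 17.4% of all tested genes reached in either direction. The p-values measure the spread between single mice of each group.

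The call on *Kcnh2* depended on the test and on 1 library, while the direction did not. With DESeq2 the log2 fold change was 0.53 (adjusted p = 0.0257), in a comparison that called 7.84% of genes. With edgeR's exact test it was 0.53 (adjusted p = 0.0388), with 5.69% of genes called. Without control replicate 5 the control mean rose to 232.7 ± 28.5 normalized CPM (SD, n = 5), the log2 fold change was 0.41 ± 0.11 (SE), and the edgeR quasi-likelihood adjusted p was 0.0425, with 5.90% of genes called. The exact permutation p for the level was then 0.00649. Leaving out any other library gave edgeR adjusted p-values of 0.0803 to 0.195.

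**Figure D1:**
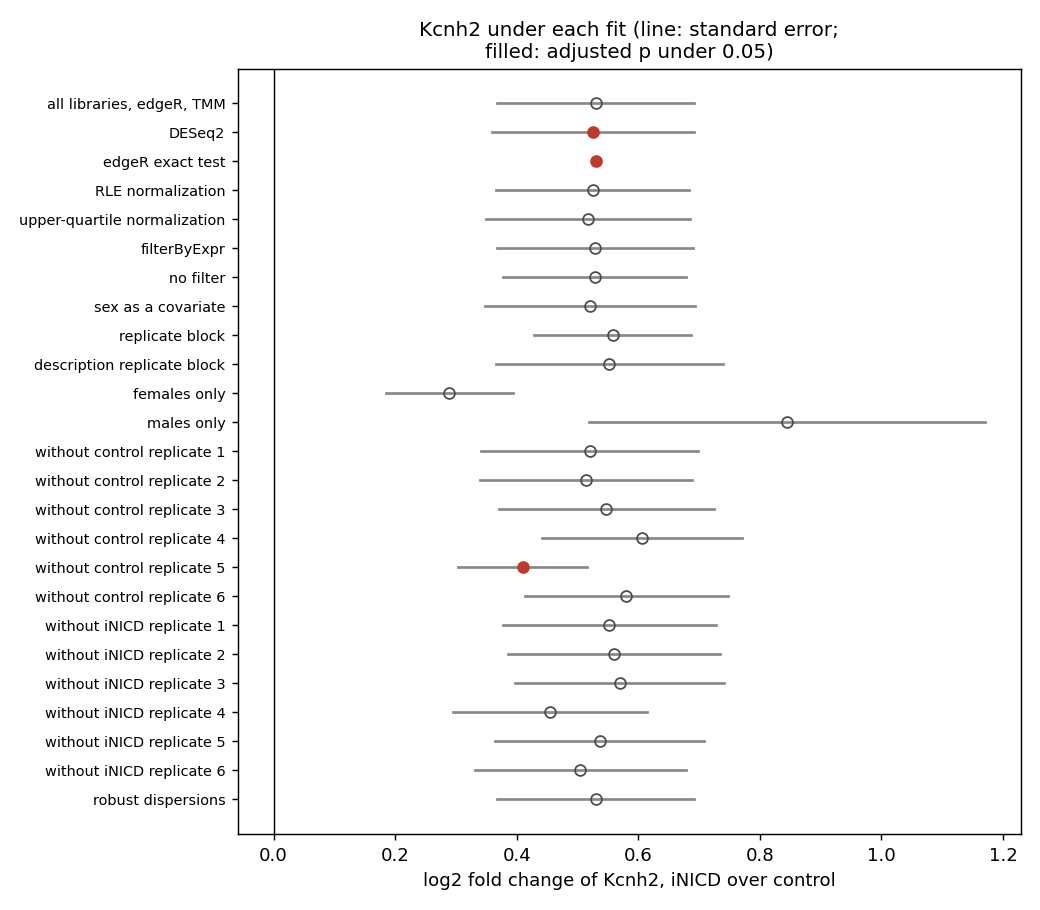
Log2 fold change of *Kcnh2*, iNICD over control (x axis), under each fit (y axis); lines are 1 standard error either side, no line is drawn for the exact test of edgeR, and filled points have an adjusted p under 0.05. All points lie to the right of 0, from 0.29 with females only to 0.84 with males only, and 3 are filled: DESeq2, the edgeR exact test and the fit without control replicate 5.

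By sex, female controls had 205.6 to 269.6 normalized CPM of *Kcnh2* and female iNICD libraries 267.8 to 286.7. The 2 male controls had 122.9 and 254.2, and the male iNICD libraries 299.9 to 387.3. The log2 fold change was 0.29 among females and 0.84 among males, and neither passed (edgeR adjusted p = 0.194 and 0.775). The difference between the sexes, 0.57 on the log2 scale, did not pass in edgeR's interaction test (adjusted p = 0.916, unadjusted p = 0.102). Control replicate 5 is 1 of the 2 male controls. In the same fit without it, which left 1 male control and assumes that it varies like the other groups, the male log2 fold change was 0.42 and the difference between the sexes 0.13 (edgeR adjusted p = 0.962).

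The sum of 7 cardiomyocyte genes (*Actc1*, *Tnnt2*, *Tnni3*, *Ryr2*, *Myh6*, *Ttn* and *Pln*) ranged from 60620 to 74920 normalized CPM in control and from 53610 to 62450 in iNICD libraries, and 1 of the 7, *Tnnt2*, was lower, against 1.34% of all tested genes. Control replicate 5 had the highest sum and the lowest *Kcnh2*, but the 7 genes were split there. *Actc1* had 21930 normalized CPM in that library, against 7484 to 15140 in the other controls. *Ryr2* (2038 against 1151 to 1554) and *Ttn* (5277 against 3692 to 4837) were also the highest of the controls. *Tnnt2*, *Tnni3* and *Myh6* were neither highest nor lowest in it, and *Pln* was the lowest (380.8 against 628.0 to 1313). The part of cardiomyocyte content in the *Kcnh2* values was not tested.

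*Kcnq1*, which encodes the pore subunit of IKs and binds all Kcne proteins in vitro, was set against *Kcnh2* inside each library. *Kcnq1* was higher in iNICD. It averaged 77.1 ± 17.2 normalized CPM in the controls against 172.0 ± 22.8 in iNICD (SD, n = 6 per group), and its log2 fold change was 1.16 ± 0.15 (SE; edgeR adjusted p = 5.85e-04). Control libraries held 218.5% to 312.5% as many reads of *Kcnh2* as of *Kcnq1*, and iNICD libraries 163.1% to 196.8%. All 6 iNICD libraries lay below all 6 controls. The log2 ratio of counts was 1.47 ± 0.19 in control and 0.85 ± 0.09 in iNICD (SD, n = 6 per group), a difference of -0.62 (exact permutation, two-sided, p = 0.00216, the lowest value 6 against 6 can give). Without control replicate 5 the difference was -0.64 with the same p. Control replicate 5, low for both genes, lay inside the range of the other controls for their ratio. This ratio does not depend on how libraries were scaled.

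**Figure D2:**
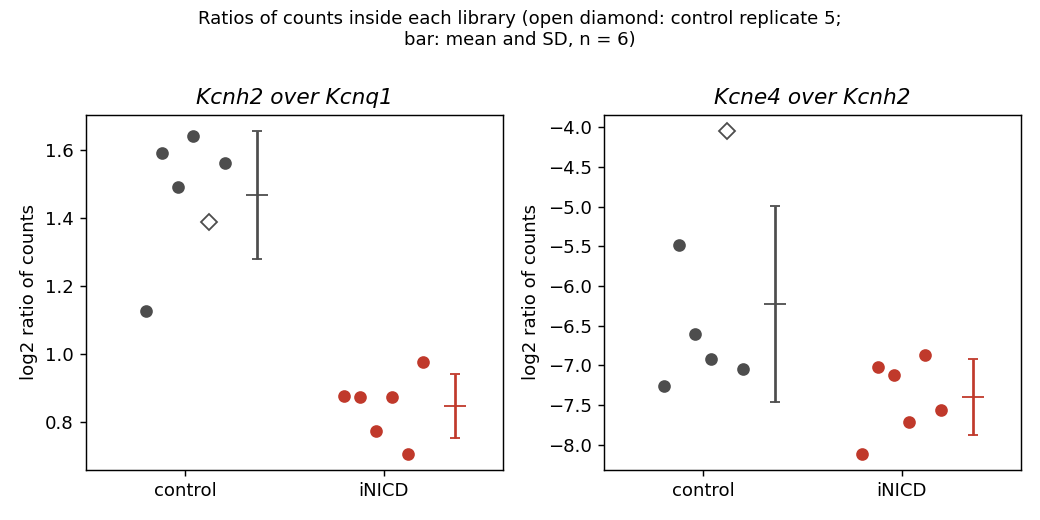
Log2 ratios of read counts within each library (y axis) for *Kcnh2* over *Kcnq1* and *Kcne4* over *Kcnh2*, in control and iNICD libraries (x axis); points are libraries, the open diamond is control replicate 5, and bars are the mean with SD (n = 6). The *Kcnh2* to *Kcnq1* ratios of the groups do not overlap, and the *Kcne4* to *Kcnh2* ratio of control replicate 5 is the highest, at -4.05.

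*Kcne4*, on the plus strand of chromosome 1 from 78816758 to 78820028, encodes the subunit that inhibits *Kcnq1* and some *Kcna* channels. It was the most abundant Kcne gene here, on few reads. Control libraries 1 to 6 held 32, 124, 56, 56, 158 and 41 counts, and iNICD libraries 1 to 6 held 25, 48, 52, 48, 61 and 43. On the normalized scale the controls spanned 1.32 to 7.40 CPM (median 2.26) and the iNICD libraries 1.02 to 2.55 (median 1.86). The groups overlapped: control replicates 5 and 2 were high, the other 4 controls lay within the range of the iNICD libraries, and 1 iNICD library was below all controls. The means were 3.29 ± 2.30 and 1.86 ± 0.50 (SD, n = 6 per group).

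For *Kcne4* the log2 fold change was -0.82 ± 0.39 (SE) with a 95% interval of -1.66 to 0.02, and it did not pass (edgeR adjusted p = 0.298, exact permutation p = 0.186). Without control replicate 5 it was -0.42 (edgeR adjusted p = 0.519, exact permutation p = 0.344). Reads of *Kcne4* were 0.64% to 6.02% of those of *Kcnh2* in control and 0.354% to 0.850% in iNICD libraries. The log2 ratio was -6.23 ± 1.24 and -7.40 ± 0.48 (SD, n = 6 per group), a difference of -1.17 (exact permutation p = 0.0325, not adjusted for the 2 ratios tested), with 3 of 6 iNICD libraries below all controls. Without control replicate 5 the difference was -0.74 with an exact permutation p of 0.0563. Without iNICD replicate 1, 3, 4 or 6 the difference was -1.03, -1.23, -1.11 and -1.14, with exact permutation p-values of 0.0909, 0.0519, 0.0909 and 0.0844.

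Of 5 genes of vascular smooth muscle, 3 had their 2 highest control values in control replicates 5 and 2, the controls with the most *Kcne4*; they were picked out after their values were seen. *Cnn1*, which encodes calponin, had 235.7 normalized CPM in control replicate 5 and 130.4 in replicate 2, and 4.14 to 24.6 in the other controls. *Tagln*, which encodes transgelin, had 60.9 and 32.3 there and 10.6 to 14.7 in the others, and *Acta2*, which encodes smooth muscle actin, 56.0 and 60.2 against 22.8 to 38.9. The sum of the 5 smooth muscle genes checked (*Myh11*, *Acta2*, *Tagln*, *Cnn1* and *Smtn*) was highest in the same 2 controls, at 568.6 and 483.1, within a control range of 392.9 to 568.6 and an iNICD range of 418.9 to 612.4. *Smtn* went the other way, with 175.6 and 235.7 as the lowest values among the controls, and *Myh11* was highest in replicate 5 (40.4) but had 24.4 in replicate 2, below replicate 3 at 31.1. None of the 5 was at 0 in any library and 0 of the 5 changed between groups, 4.12% of all genes having changed. The sum of 6 pericyte genes was also highest in these 2 controls, at 578.5 and 570.8, and ranged from 600.7 to 763.5 in iNICD libraries, where 1 of the 6, *Cspg4*, was higher. The same 2 controls, replicate 5 before replicate 2, also had the highest control sums of the 5 endothelial genes (1147 and 972.6). The same held for the 7 cardiomyocyte genes (74920 and 66190) and the 4 atrial genes (44020 and 39260). Their members did not all follow. *Nppa* (30720 and 26920) and *Actc1* (21930 and 15140) were the highest of the controls there. *Myl7* (4028 and 4156), *Sln* (1011 and 1180) and *Pln* (380.8 and 628.0) were the lowest. In replicate 5 *Kdr* (119.5) and *Tie1* (86.2) were the lowest of the controls. So were its sums of endocardial (263.8), epicardial and mesothelial (200.7) and conduction genes (14.1). The part of any of these cells in the *Kcne4* values was not tested.

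*Kcne1l*, on the minus strand of the X chromosome from 142304752 to 142306294, encodes another inhibitory partner of *Kcnq1*. Control libraries 1 to 6 held 25, 18, 12, 31, 1 and 7 counts, and iNICD libraries 1 to 6 held 16, 18, 33, 19, 18 and 10. The lowest library was again control replicate 5. Control replicates 5 and 6 lay below every iNICD library, and the other 4 controls overlapped them. The means were 0.632 ± 0.441 and 0.755 ± 0.259 normalized CPM (SD, n = 6 per group; exact permutation p = 0.567, and 0.978 without control replicate 5).

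*Kcne3*, on the plus strand of chromosome 7 from 100176502 to 100184869, encodes the subunit that holds *Kcnq1* channels open in epithelia. It had 9, 11, 6, 4, 6 and 5 counts in the controls and 4, 6, 4, 7, 5 and 6 in the iNICD libraries. The 2 highest values were those of control replicates 1 and 2, and the rest overlapped. The means were 0.283 ± 0.092 and 0.216 ± 0.052 normalized CPM (SD, n = 6 per group; exact permutation p = 0.158).

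*Kcne1* and *Kcne2* lie close together on chromosome 16, on opposite strands, *Kcne1* from 92345982 to 92359468 (minus) and *Kcne2* from 92292389 to 92298129 (plus). *Kcne1* encodes minK, which with *Kcnq1* forms the slow IKs channel. Its counts were 5, 4, 2, 8, 15 and 1 in the controls and 3, 2, 5, 4, 5 and 2 in the iNICD libraries. Control replicate 5 supplied 15 of the 35 control reads, and the other controls overlapped the iNICD libraries. The means were 0.250 ± 0.241 and 0.139 ± 0.051 normalized CPM (SD, n = 6 per group; exact permutation p = 0.353, and 0.717 without control replicate 5).

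*Kcne2* encodes the subunit first described as a partner of the *Kcnh2* channel. It had 1 read in each of 4 libraries (control replicates 2 and 5, iNICD replicates 1 and 4) and 0 in the other 8. A count of 0 in a library allows up to 3 reads, 0.110 to 0.140 normalized CPM, and both groups were below that floor, so no fold is given. A difference between the groups was not detectable for *Kcne2* at this depth.

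**Figure D3:**
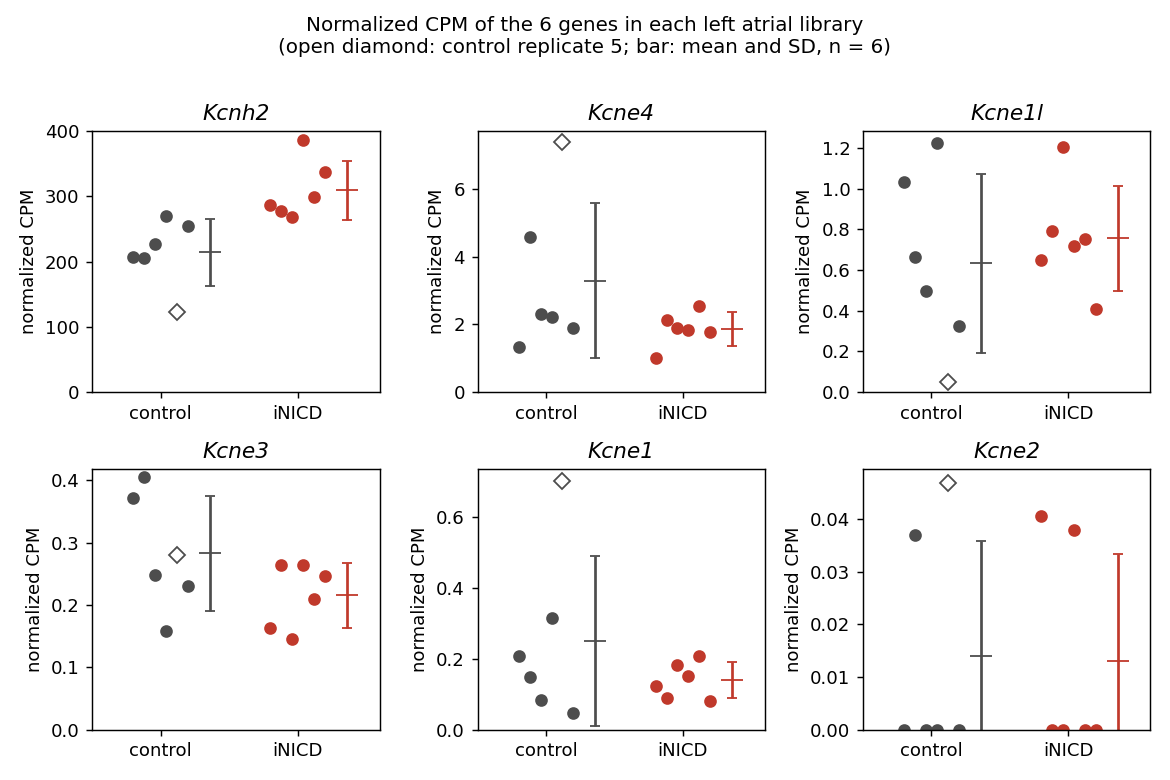
Normalized CPM (y axis, a separate linear scale from 0 for each gene) of the 6 genes in control and iNICD libraries (x axis); points are libraries, the open diamond is control replicate 5, and bars are the mean with SD (n = 6 per group), bars that would reach below 0 being clipped at the axis. Control replicate 5 is the lowest control for *Kcnh2* (122.9) and *Kcne1l* (0.0468) and the highest for *Kcne4* (7.40) and *Kcne1* (0.702).

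Levels were compared between genes after division by the length of the gene's exons, as normalized CPM per kb. In control libraries the order was *Kcnh2* at 44.2 ± 10.6, *Kcne4* at 1.24 ± 0.87, *Kcne1l* at 0.409 ± 0.286, *Kcne3* at 0.159 ± 0.052, *Kcne1* at 0.0779 ± 0.0750 and *Kcne2* at 0.0079 ± 0.0124 normalized CPM per kb (SD, n = 6). In iNICD libraries the order was the same, at 63.9 ± 9.31, 0.700 ± 0.189, 0.489 ± 0.168, 0.121 ± 0.029, 0.0433 ± 0.0159 and 0.0074 ± 0.0115. *Kcnh2* was above *Kcne4* in 12 of 12 libraries, 35.8-fold in the control means and 91.3-fold in the iNICD means, and its control level per kb exceeded that of 94.2% of tested genes; *Kcne4* exceeded 18.3%. Below *Kcnh2* the neighbors in the order overlapped in control libraries: *Kcne4* exceeded *Kcne1l* in 9 of 12 libraries, *Kcne1l* exceeded *Kcne3* in 11 and *Kcne3* exceeded *Kcne1* in 10. *Kcnq1* lay between *Kcnh2* and *Kcne4*, at 18.8 ± 4.19 in control and 42.0 ± 5.56 in iNICD (SD, n = 6). Both pore subunit genes lay above every Kcne gene in level per kb in all 12 libraries.

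**Figure D4:**
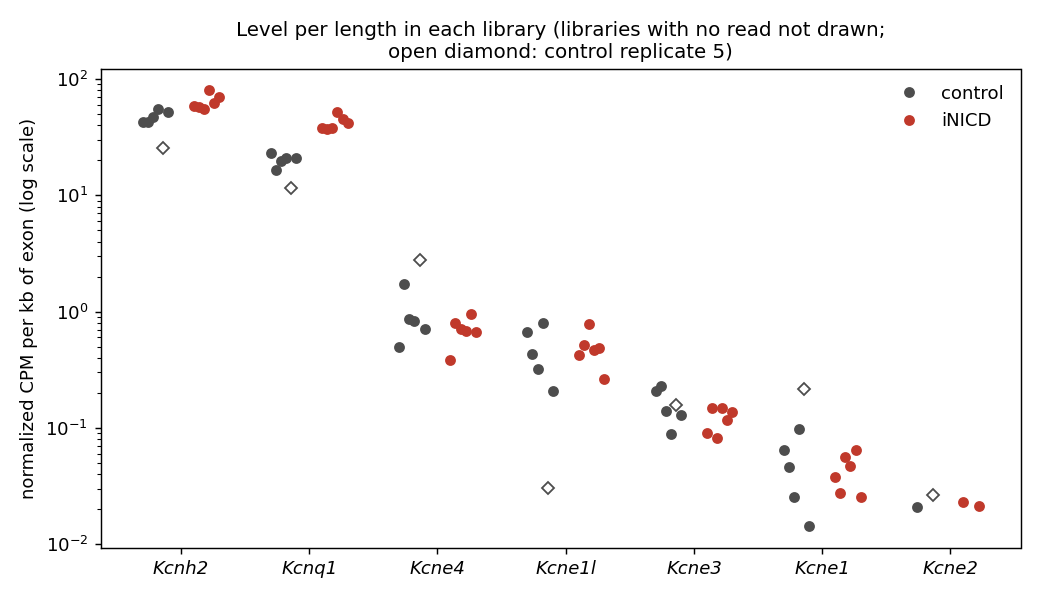
Normalized CPM per kb of exon (y axis, log scale) of the 6 genes and *Kcnq1* in each control and iNICD library; the open diamond is control replicate 5, and libraries with no read, 8 of 12 for *Kcne2*, are not drawn. *Kcnh2* lies above every Kcne gene in all 12 libraries, and the ranges of the Kcne genes overlap with their neighbors in the control libraries.

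The Kcne proteins also bind pore subunits of the Kcnq, Kcna, Kcnb, Kcnc, Kcnd and Hcn families. Of 21 such genes compared, 13 were tested, 2 were higher in iNICD (15.4%, against 4.12% of all genes called in either direction), 0 were lower and 11 did not pass. Of the 13, 9 had a positive log2 fold change, with a median of 0.35 against -0.01 over all tested genes. The 2 were *Kcnq1* and *Kcnd3*. *Kcnd3*, which encodes a pore subunit of the transient outward current, ranged from 27.3 to 37.5 normalized CPM in the controls and from 36.2 to 43.4 in iNICD. Its groups overlapped, and its log2 fold change was 0.35 ± 0.08 (SE; edgeR adjusted p = 0.0331). It passed in 4 of 12 fits without 1 library and did not pass with a replicate block, under either numbering, or in either sex alone, while *Kcnq1* passed all 12 times. After *Kcnq1* the list's highest control levels per kb were those of *Kcnd2*, another pore subunit of the transient outward current, and *Kcna5*, which encodes a delayed rectifier subunit. Their log2 fold changes were 0.64 (edgeR adjusted p = 0.188) and -0.02 (edgeR adjusted p = 0.971). Without control replicate 5 the list also had 2 higher and 0 lower, with a median of 0.31.

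**Figure D5:**
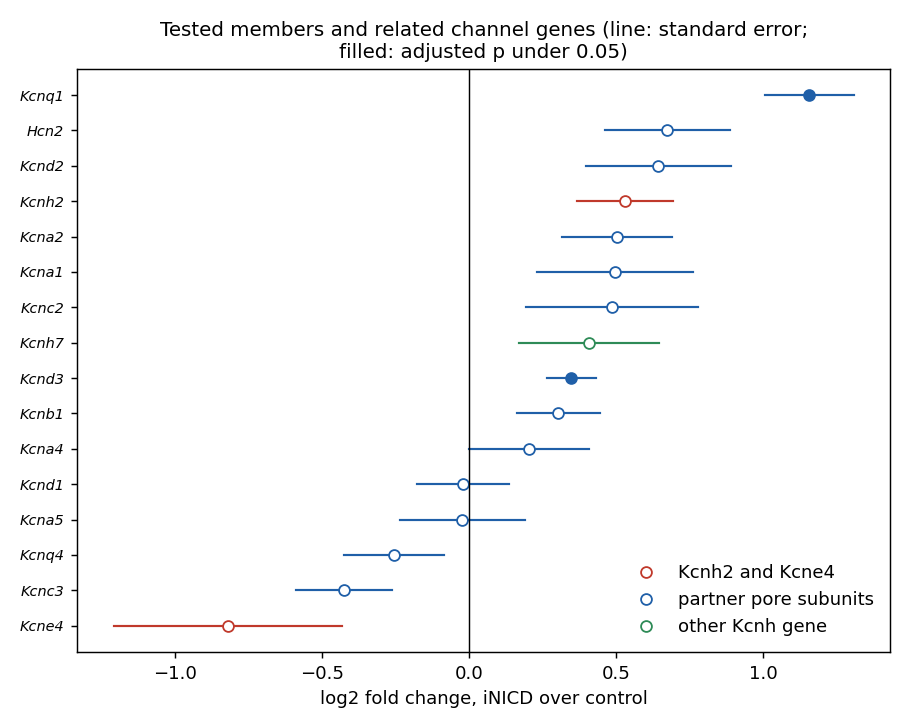
Log2 fold change, iNICD over control (x axis), of the tested genes among *Kcnh2*, the Kcne genes, their partner pore subunits and the other Kcnh genes (y axis); lines are 1 standard error either side and filled points have an edgeR adjusted p under 0.05. *Kcnq1* (1.16) and *Kcnd3* (0.35) are filled, and *Kcnh2* (0.53) and *Kcne4* (-0.82) are open.

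The other Kcnh genes were low. Of 7 listed, 1 was tested, *Kcnh7*, which encodes another channel of the ERG group. It averaged 13.6 ± 5.03 normalized CPM in the controls against 18.1 ± 3.73 in iNICD (SD, n = 6 per group), and its log2 fold change of 0.41 did not pass (edgeR adjusted p = 0.402). Per kb its control level was 0.892 ± 0.330 normalized CPM, against 44.2 for *Kcnh2*.

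The *Kcnh2* channel needs chaperones to fold and leaves the membrane through ubiquitin ligases. Of 29 genes listed for its folding, trafficking and regulation, all 29 were tested and 0 passed in edgeR's quasi-likelihood test, which called 4.12% of all genes; 1 (*Hspa8*) was higher and 2 (*Bag2* and *Sgk1*) were lower at an unadjusted p under 0.05, which 17.4% of all genes reached. *Hspa8* had 101.1 and 109.2 normalized CPM in iNICD replicates 2 and 5, and the other 4 iNICD libraries, at 14.5 to 19.7, lay within the control range of 13.5 to 24.9. *Bag2* had 157.0 in control replicate 5 and 46.2 to 73.0 in the other controls, and its log2 fold change was -0.67, or -0.27 without that library. DESeq2 and edgeR's exact test, which called 7.84% and 5.69% of all genes, each called 1, *Sgk1*, a kinase that raises the surface level of several channels. *Sgk1* ranged from 26.5 to 72.6 normalized CPM in the controls and from 18.5 to 41.0 in iNICD, a log2 fold change of -0.84 (edgeR quasi-likelihood adjusted p = 0.112), and the groups overlapped. The median of the 29 was -0.07, with 8 positive. The 3 genes with the highest control level per kb had log2 fold changes of -0.21 for *Hsp90ab1*, which encodes a chaperone of the channel (adjusted p = 0.289), -0.08 for *Ywhae*, which encodes a 14-3-3 protein (adjusted p = 0.609), and 0.01 for *Cav1*, which encodes a caveolin (edgeR adjusted p = 0.968).

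The nearest tested genes on either side of the 6 loci were compared as well. Of 11 distinct neighbors, 1 changed, against 4.12% of all tested genes: *Mrps6*, a mitochondrial ribosomal protein gene 180 kb before *Kcne2*, was lower, with a log2 fold change of -0.42 (edgeR adjusted p = 0.0244), and passed in 5 of 12 fits without 1 library. Beside *Kcnh2*, *Nos3*, the endothelial nitric oxide synthase gene 13.2 kb away, had a log2 fold change of -0.18 (edgeR adjusted p = 0.368), and *Nupl2*, 136 kb away, of 0.05 (edgeR adjusted p = 0.844). *Acsl3*, 109 kb before *Kcne4*, had 0.48 (edgeR adjusted p = 0.0574). Annotated genes on the opposite strand overlap *Kcnh2*, *Kcne3* and *Kcne4*; they share 0, 9 and 0 exonic bases with them, and none of the 3 was tested.

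Within groups, the genes whose deviations from the group means were most like those of *Kcnh2* over the 12 libraries were *Gmpr* (Pearson r = 0.964), *Mapk9* (0.953) and *Nelfcd* (0.951), and *Tmem189* was the most opposed (-0.932). These points share a library, and control replicate 5 deviated for *Kcnh2* by -0.76 on the log2 scale against -0.20 to 0.37 for the others. Over the 11 libraries without it the values for the same genes were 0.882, 0.880, 0.868 and -0.818. Other genes then led, *Mapre3* at 0.916, *Dmpk* at 0.909 and *Mrpl57* at 0.905, which over the 12 libraries had 0.862, 0.666 and 0.384. The genes named as most alike or most opposed, here and for *Kcne4*, were picked as extremes among all tested genes, and no r was tested. For *Kcne4* the most alike were *Gbe1* (0.944) and *Ppp3cc* (0.933), and the most opposed was *Fgf13* (-0.952); without control replicate 5 these were 0.895, 0.874 and -0.905, and other genes led, *Disp1* at 0.941 and *Zfp521* at 0.932, which over the 12 libraries had 0.101 and -0.346, with *Echdc1* the most opposed at -0.943. *Kcnh2* and *Kcne4* deviated oppositely over the 12 libraries (r = -0.608), and without control replicate 5 r was -0.08.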

How the data were processed

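Total RNA of 12 mouse LA was sequenced from libraries depleted of ribosomal RNA, with reads described as stranded. The table that the authors deposited gives raw counts per gene name, not normalized, and a length per gene in bases. The paper describes counting by TopHat2 with HTSeq and by STAR with featureCounts, and the submitters' processing notes list cutadapt, STAR 2.4.2a, featureCounts of Subread and edgeR with mm10; the table does not name the route that made it, and the strand setting of the counting is not given in the sources used here. Groups and replicate numbers came from the sample titles, sex from the descriptions.

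Genes with over 1 CPM in at least 6 libraries (13541) were normalized by TMM and compared with edgeR's quasi-likelihood test (two-sided; edgeR 4.0.16 in R 4.3.3). P-values were adjusted over all these genes by Benjamini-Hochberg, at a threshold of 0.05. The F statistic gave the standard errors. Levels of single genes in normalized CPM and log2 ratios of counts (pseudocount 0.5) were compared by exact permutation of libraries. The edgeR quasi-likelihood fit was tested on simulated counts. It recovered 46 of 100 genes set to a log2 fold change of 0.5, up or down, and 77 of 96 set to 1. An alternative fit used DESeq2 1.42.0, which was not tested in this way. Likeness of pattern is Pearson's r of within-group deviations of log2 CPM (prior count 2). No library was a copy of another of its group (chi-square per gene at least 16.7). Gene positions are from GENCODE M21, whose exon lengths equal the deposited lengths for all 6 genes, and were read with Python 3.11.15.

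The genes, lists and tests were chosen with earlier results of these data known. Genes named from a list are those past the threshold, up to 5 each way, or, where fewer than 3 passed, the 3 with the highest level per length; *Sgk1*, *Hspa8*, *Bag2*, *Mrps6* and the smooth muscle genes given by library were named after their values were seen. Alternatives were DESeq2, edgeR's exact test, other normalizations and filters, a replicate block, a sex term, each sex alone and each library left out; robust dispersions and a sex difference without control replicate 5 were added after seeing the data. Right atrial libraries, human nuclei and RT-qPCR were not analysed here, and some genes are not reported here.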

Additional observations from a re-analysis of the deposited data

How the results depend on the processing

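Of the 6 genes, 0 passed in the fit reported, and 1, *Kcnh2*, passed with DESeq2 (log2 fold change 0.53), with the exact test of edgeR (0.53) and without control replicate 5; leaving out each library in turn gave 0 to 1 passing genes and 0.41 to 0.61 for *Kcnh2*. The folding and trafficking list had 1 call, *Sgk1*, with DESeq2 and with the exact test, and 0 to 1 with a library left out, the 1 being without control replicate 6. The partner list had 2 calls, 3 with DESeq2 (*Hcn2* added), 1 with females only, 1 to 2 with a library left out (1, *Kcnq1*, without control replicate 1, 3 or 4 or iNICD replicate 4, 5 or 6; *Kcnd3* gave way to *Hcn2* without iNICD replicate 1, to *Kcna2* without iNICD replicate 3 and to *Kcnb2* without a filter) and 0 with males only, where 8 genes in all were higher and 0 lower. The difference in the log2 ratio of *Kcne4* to *Kcnh2* ranged from -1.38 to -0.74 with a library left out. Over all genes 377 were higher and 181 lower, 615 and 444 with DESeq2, and 486 and 310 without control replicate 5. Same-numbered control and iNICD libraries deviated together with a correlation over 0.1 in 4 of 6 pairs (mean 0.121, with -0.107 and -0.153 for numbers 3 and 4). By the numbers of the descriptions it was also 4 of 6 (mean 0.138). Without the correlations of differently numbered libraries beside them, these values cannot show whether the numbers pair the mice. The fit reported had no block because the study used none. With a replicate block, 332 genes in all passed as higher and 136 as lower, and *Kcnh2* had 0.56 (edgeR adjusted p = 0.0619); with the block numbered by the descriptions these were 285, 136 and 0.55 (edgeR adjusted p = 0.179). Under both blocks the partner list had 1 call, *Kcnq1*, and lost *Kcnd3*. The difference between the sexes for *Kcne4*, -0.54, was 0.74 without control replicate 5, a fit added after seeing the data; neither passed. The cause of these shifts was not tested. The 4 genes under the expression filter had no value in the fit reported; without a filter, 0 of them passed. Depth limits *Kcne1*, *Kcne2* and *Kcne3*, with at most 15 reads in a library.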

Other observations

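The immediate early and stress genes *Fos*, *Jun*, *Egr1*, *Atf3* and *Mt2*, which respond to handling of tissue, had summed levels of 109.1 to 906.9 normalized CPM in the controls and 90.6 to 240.6 in iNICD. *Fos* was lower in iNICD (log2 fold change -3.10, edgeR adjusted p = 0.0283), and the other 4 did not pass. *Fos* had 285.0 normalized CPM in control replicate 4 and 11.2 to 87.0 in the other controls; without that library its log2 fold change was -2.06 (edgeR adjusted p = 0.0385), and it did not pass without any 1 of the 6 iNICD libraries (adjusted p = 0.0537 to 0.0732). *Mt2*, which encodes a metallothionein, had 296.8 normalized CPM in control replicate 5 and 3.06 to 6.52 in the other controls. Control replicate 5 also had the highest *Actc1* of the controls (21930 against 7484 to 15140) and the lowest *Pln* (380.8 against 628.0 to 1313). Of 5 endothelial genes, 6 fibroblast genes and 5 macrophage genes, 0 in each list changed between groups, where 4.12% of all tested genes did, so lists of this size show little. Among the Kcnh genes under the expression filter, *Kcnh1* averaged 0.880 ± 0.315 normalized CPM in the controls and 0.472 ± 0.140 in iNICD, and *Kcnh3* had 0.315 ± 0.181 and 0.307 ± 0.177 (SD, n = 6 per group), neither of which was tested.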
